A study of Mus musculus with 8 samples.

Results

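Type I interferon effector genes are the genes that carry out the antiviral state, as opposed to those that sense viruses or relay the interferon signal. A set of 40 of them was followed here in leukaemia stem cells, made up of antiviral RNA-binding proteins, the ubiquitin-like modifier ISG15 and its enzymes, membrane restriction factors, nucleotide and RNA enzymes, PARP genes and further interferon-induced effectors. The members were chosen by gene symbol and function, with no measured value in the rule but with earlier results of these data known, and all 40 were found among the 48500 genes of the deposited table. Sensors, oligoadenylate synthetases, interferon regulatory factors, STAT genes, p200 genes and interferon-inducible GTPases were left out of the set.

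RNA levels, in FPKM, came from RNA-seq of 4 Nynrin-KO libraries (Nynrin-/-, named KO1 to KO4) and 4 WT libraries (Nynrin+/+, named WT1 to WT4). In both groups the mice carried acute myeloid leukaemia induced through HOXA9 with MEIS1, a pair of homeobox transcription factors that transform marrow progenitors. From the bone marrow, about 10000 cells per library that carried GFP and c-Kit and lacked Gr-1 were sorted, and cDNA was made with a low-input Smart-Seq kit. The age of the mice, the way the drivers were delivered, the extent of the Nynrin deletion and whether each library is a mouse of its own are not stated in the labels. The p-values therefore cover only the spread among the libraries, which may be technical.

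The recovered depth was 9.48, 23.0, 1.83 and 28.7 M reads (M for mega) in KO1 to KO4, and 33.1, 7.07, 1.96 and 17.2 M in WT1 to WT4. For a transcript of 1 kb, 3 reads corresponded to 1.64 FPKM in KO3, the shallowest library, and to 0.0907 FPKM in WT1, the deepest. Nynrin itself was low in both groups (0.0982 to 0.437 FPKM in Nynrin-KO, 0.008 to 0.286 FPKM in WT), so it does not check the genotype labels. Xist stood at 12.7 FPKM in KO1 and at most 0.366 FPKM in KO2 to KO4, against 15.2 to 26.5 FPKM in WT. The Y-linked gene Ddx3y stood at 2.18 FPKM in KO1 and 18.2 to 20.7 FPKM in KO2 to KO4, against at most 0.111 FPKM in WT. KO1 thus held reads of both genes, with Xist somewhat below the WT range, while in the other 7 libraries sex and genotype cannot be told apart. The part of sex in the results was not tested, and whether KO1 is a mixture of cells from more than 1 mouse is not stated in the labels. Without KO1, 36 of the 39 members tested were called higher by limma at an adjusted p under 0.05 (10.8% of the genes tested). The level of Gm10800, a predicted gene similar to satellite DNA, was below 10000 FPKM in 3 libraries (KO2, KO4 and WT1) and above it in the other 5. Kit, the gene of the sorted antigen, was at 3.9, 3.17, 2.92 and 4.91 FPKM in KO1 to KO4 and 6.4, 5.37, 2.63 and 5.31 FPKM in WT1 to WT4.

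Type I interferons are secreted proteins that bind the receptor made of IFNAR1 and IFNAR2 and activate the kinases JAK1 and TYK2. The kinases set off the assembly of the transcription factor complex ISGF3, of which IRF9 is a part. ISGF3 binds the interferon-stimulated response element in the promoters of its target genes, many of which encode proteins that block steps of virus replication. In marrow, type I interferon is known to drive dormant haematopoietic stem cells into cycle, and interferon alpha has long been used against myeloid neoplasms.

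The effector genes were higher in Nynrin-KO almost throughout. With limma, 38 of the 40 members were called higher at an adjusted p under 0.05, where 14.0% of the 12524 genes tested were called higher. None was called lower, where 13.8% of the genes tested were. At an unadjusted p under 0.05 the counts were 39 higher and 0 lower, where 20.4% of the genes tested were higher and 20.1% lower. At an adjusted p under 0.01, 23 members were called higher (5.36% of the genes tested). Under quantile normalization 39 were called higher (11.5%), and with the replicate number as a block 36 (10.8%), while voom on the recovered reads called 37 higher (18.8% of the genes it tested) and 0 lower. The log2 change, taken on log2(FPKM + 1) as Nynrin-KO over WT, had a median of 2.21 over the 40 members and -0.03 over all genes tested, and ranged from 0.77 to 5.24. It lay above 2 for 25 members, where 2.01% of the genes tested did so, and above 3 for 12. On the linear scale the Nynrin-KO mean was 2.03 to 29.9 times the WT mean, with a median of 6.05.

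**Figure D1:**
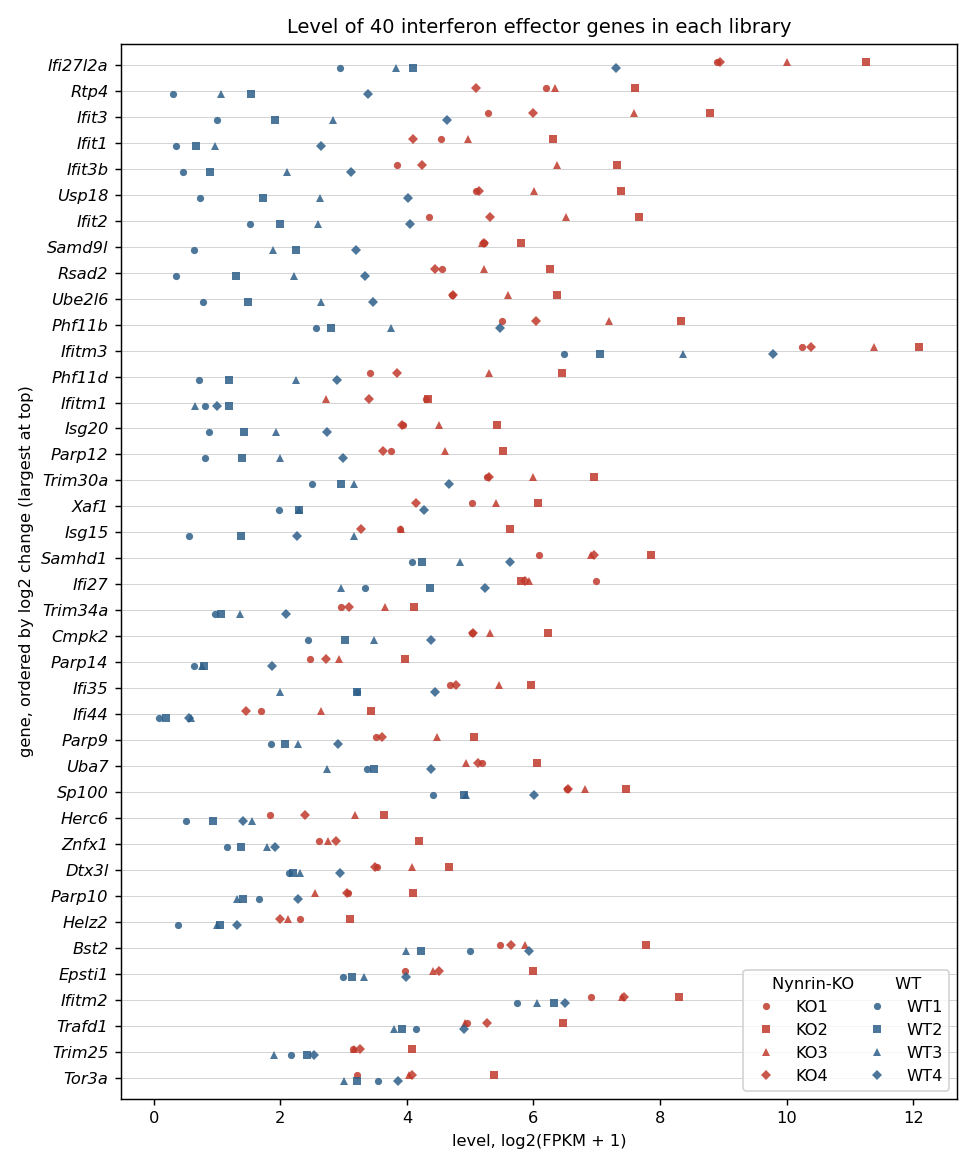
Level of each of the 40 genes in every library, as log2(FPKM + 1), ordered by log2 change with the largest at the top; red symbols are KO1 to KO4 and blue symbols WT1 to WT4. In 36 genes all 4 Nynrin-KO symbols lie to the right of all 4 WT symbols.

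In 36 of the 40 members every Nynrin-KO library stood above every WT library, a separation that 16.7% of the genes tested showed. The 4 exceptions were Xaf1, Epsti1, Bst2 and Tor3a. All 40 members reached 1 FPKM in each Nynrin-KO library, whereas 22, 35, 36 and 38 of them did in WT1 to WT4. All 40 passed the filter of at least 1 FPKM in 4 of the 8 libraries, and Ifi44 passed it through the Nynrin-KO libraries alone. Among the 22 members at 1 FPKM or more in all 8 libraries, 20 were called higher (16.9% of the genes that meet this filter were). With no filter, 35 of the 40 were called higher, against 1.63% of all 48500 genes.

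Within each group the libraries were not alike, and the same ones led across the set. KO2 was the highest of all 8 libraries for 39 members, where 16.6% of the genes tested had KO2 highest, and Ifi27 was the exception. The level in KO2 was 0.680 to 4.55 times the mean of KO1, KO3 and KO4, with a median of 2.58. WT4 was the highest WT library for 36 members (18.5% of the genes tested). Over all 40 members its level was 1.13 to 13.04 times the mean of WT1 to WT3, with a median of 2.98. WT1 was the lowest WT library for 31 members (28.2% of the genes tested) and WT3 for the other 9. The mean log2(FPKM + 1) level over the 40 members was 4.60, 6.23, 5.21 and 4.66 in KO1 to KO4, and 2.003, 2.43, 2.66 and 3.76 in WT1 to WT4. Every Nynrin-KO library thus stood above WT4 in this mean, and the Nynrin-KO mean of a member was 1.48 to 13.5 times its WT4 level. Without WT4, 38 members were called higher (13.0% of the genes tested), and without KO2, 34 of 39 (8.68%). With WT1 and KO1 left out, 30 of 39 were called higher (6.72%).

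Markers of other blood cells also differed between the libraries. Summed over 15 mature neutrophil genes, which include Ly6g of the Gr-1 antigen that was gated out, the level was 284740, 125530, 215030 and 194280 FPKM in KO1 to KO4, against 3052, 81269, 55727 and 105000 FPKM in WT1 to WT4. Every Nynrin-KO library had a neutrophil sum above every WT library. KO2, the highest library for the effector genes, had the lowest neutrophil sum of the 4 Nynrin-KO libraries. Within WT, WT1 was lowest and WT4 highest for both the neutrophil sum and the mean effector level. Of the 15 neutrophil genes 9 others, which add little to the sum, were called higher, where 14.0% of all genes tested were. Summed over 13 monocyte and macrophage genes, the level was 1887, 4250, 2882 and 2264 FPKM in KO1 to KO4, against 1327, 1806, 1568 and 2550 FPKM in WT1 to WT4, and 6 of the 12 tested were called higher. From high to low this sum ran KO2, KO3, KO4 and KO1, the same order as the mean effector level. Within WT both were highest in WT4 and lowest in WT1, with WT2 and WT3 in opposite order. WT4 had a higher sum than KO1 and KO4. The monocyte and macrophage sum rests largely on Ly6c2, which was not called. Without Ly6c2, a split chosen after its values were seen, the other 12 genes summed to 398, 1057, 540 and 1187 FPKM in KO1 to KO4, against 379, 225, 339 and 371 FPKM in WT1 to WT4. Every Nynrin-KO library then stood above every WT library, with KO4 the highest. KO1 at 398 FPKM was close to WT1 at 379 FPKM. Their separation rests on Apoe, which alone held 67.3 FPKM in KO1 and 8.01 FPKM in WT1. The 6 genes called were C1qa, C1qb, C1qc, Apoe, Vcam1 and Mrc1, of which Mrc1 passed the filter through Nynrin-KO alone. Besides Ly6c2, the tested genes Csf1r, Cx3cr1, Ccr2, Adgre1 and Cd68 were not called (log2 changes 1.30, 0.93, 0.19, -0.02 and -0.11). In these bulk samples, a change in the number of cells of a type and a change in RNA per cell cannot be told apart, and the part of other cells in the results was not tested.

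**Figure D2:**
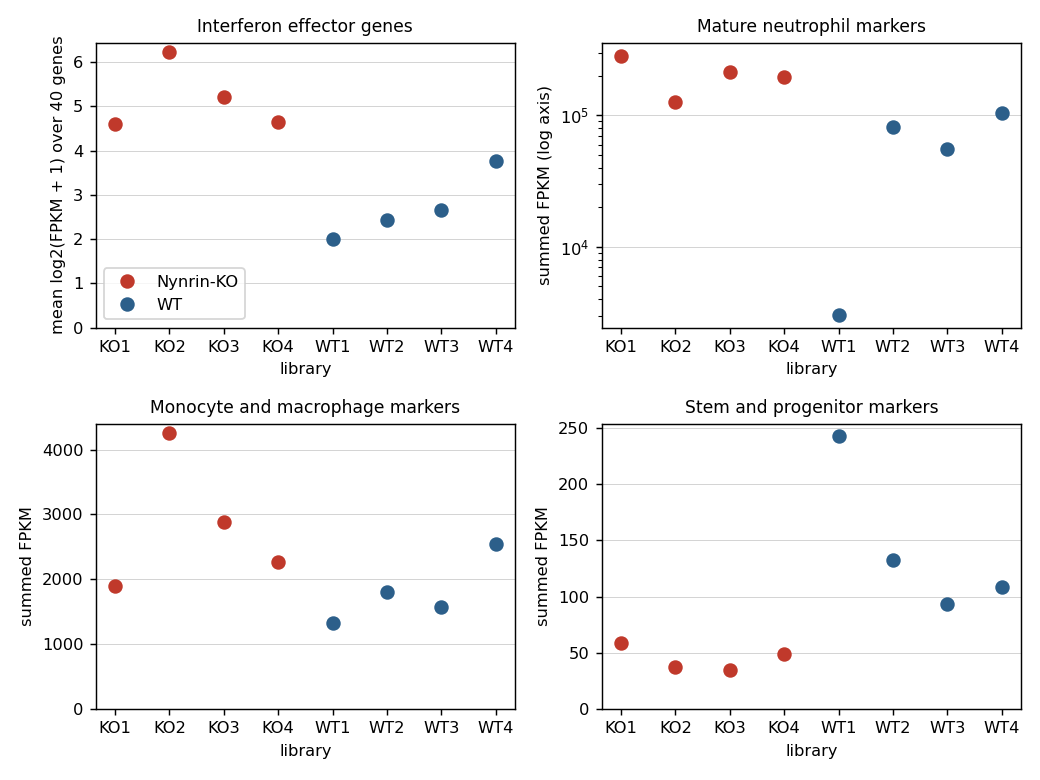
Mean log2(FPKM + 1) level of the 40 effector genes in each library, beside summed FPKM of marker genes of other cell types, with Nynrin-KO libraries in red on the left and WT libraries in blue on the right; an axis is logarithmic where labelled so. Ly6c2 makes up most of the monocyte and macrophage sum in every library except KO4. The effector level runs from 4.60 to 6.23 in Nynrin-KO and from 2.003 to 3.76 in WT.

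The remaining marker lists were at far lower levels. Their counts of calls stand beside 14.0% of all genes tested called higher and 13.8% called lower. Plasmacytoid dendritic cell markers, from a cell type specialised in making type I interferon, summed to 6.73 to 19.6 FPKM in Nynrin-KO and 3.69 to 8.54 FPKM in WT, with 1 of 2 tested called higher, Ly6d, which passed the filter through Nynrin-KO alone and so had to differ. The defining marker Siglech was at 1.01, 0.264, 2.38 and 1.41 FPKM in KO1 to KO4 and 0.302, 0.307, 0.221 and 0.933 FPKM in WT1 to WT4. Cox6a2 was the sole marker of this list with a lower mean in Nynrin-KO. It was at 0.310, 0, 0 and 0.512 FPKM in KO1 to KO4 and 2.84, 2.29, 0 and 2.99 FPKM in WT1 to WT4. Tcf4, the other gene tested, was not called (log2 change 0.43, adjusted p = 0.207). T and NK cell markers summed to 6.20 to 20.2 FPKM in Nynrin-KO and 0.369 to 7.28 FPKM in WT (1 of 2 tested higher). B cell markers summed to 19.1 to 37.2 FPKM in Nynrin-KO and 19.996 to 27.5 FPKM in WT, mostly from Cd79b, which was not called. Without Cd79b the other 4 B cell genes summed to 4.71 to 15.6 FPKM in Nynrin-KO and 0.159 to 2.55 FPKM in WT. Of the 3 B cell genes tested 1 was called higher, Cd79a, which passed the filter through Nynrin-KO alone. Erythroid markers summed to 4.66 to 33.3 FPKM in Nynrin-KO and 0.260 to 2.14 FPKM in WT (2 of 2 tested higher), but both genes tested, Hbb-bs and Hba-a1, passed the filter through Nynrin-KO alone and so had to differ. Mast cell and basophil markers summed to 47.2 to 117 FPKM in Nynrin-KO and 6.62 to 11.4 FPKM in WT (3 of 5 tested higher, of which Ms4a2 passed through Nynrin-KO alone). Stem and progenitor markers summed to 34.6 to 58.6 FPKM in Nynrin-KO and 93.8 to 243 FPKM in WT. Of these 7 genes 2 were called higher, Hoxa9 and Meis1, which share the names of the leukaemia drivers, and 3 lower, Cd34, Flt3 and Gata2. Hoxa9 was low and overlapped, at 1.70 to 6.38 FPKM in Nynrin-KO and 0.569 to 1.90 FPKM in WT. Meis1 was at 2.03 to 5.13 FPKM in Nynrin-KO and 0.664 to 0.898 FPKM in WT. How the drivers were delivered is not stated, so whether these values include them is not known. Meis1 passed the filter through Nynrin-KO alone and so had to differ. Without Cd34, the most abundant stem and progenitor marker, the sums overlapped, at 29.1 to 51.3 FPKM in Nynrin-KO and 38.02 to 91.9 FPKM in WT.

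The 4 IFIT genes, whose proteins bind foreign RNA and block its translation, all rose, with a median log2 change of 3.81. Ifit1 (chr19:34640871-34650009), which recognises RNA caps that lack the host methyl mark, stood at 22.4, 78.1, 30.1 and 16.1 FPKM in KO1 to KO4, against 0.273, 0.585, 0.959 and 5.26 FPKM in WT1 to WT4 (log2 change 3.82, SE 0.58, adjusted p = 0.00295). Every Nynrin-KO library was above WT4, which was itself the highest WT library by a wide margin. Ifit3 (chr19:34583531-34588731), a partner that stabilises IFIT1 in humans, reached 37.8, 442, 191 and 62.3 FPKM in KO1 to KO4, against 0.987, 2.75, 6.13 and 23.9 FPKM in WT1 to WT4 (log2 change 4.32, SE 0.92, adjusted p = 0.00974). Ifit2 (chr19:34550694-34576419), another binder of viral RNA, was at 19.5, 202, 90.3 and 38.9 FPKM in KO1 to KO4, against 1.88, 3.0, 5.07 and 15.5 FPKM in WT1 to WT4 (log2 change 3.42, SE 0.75, adjusted p = 0.0109). In both genes KO2 was far above the rest and KO1 the lowest Nynrin-KO library, still above WT4. Ifit3b (chr19:34607970-34613401), the mouse duplicate of Ifit3, showed 13.3, 158, 82.1 and 17.9 FPKM in KO1 to KO4, against 0.378, 0.848, 3.31 and 7.72 FPKM in WT1 to WT4 (log2 change 3.8, SE 0.85, adjusted p = 0.0121). The pair shares sequence: 51.2% of the 50-base words of the longest Ifit3 transcript also occur in Ifit3b, so the division of reads between them is uncertain. The 4 genes follow each other on chromosome 19 in the order Ifit2, Ifit3, Ifit3b and Ifit1, all on the plus strand.

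Promoters were read because these genes moved together and ISGF3 is known to bind a repeated GAAA sequence. The window of 250 bases before to 50 bases after the RefSeq start (GRCm38.p6) was available for 32 of the 40 members, and Rtp4, Usp18, Ifi27, Ifi27l2a, Parp9, Parp10, Parp14 and Tor3a had no entry. It was searched for GAAANNGAAA, the core of the interferon-stimulated response element, on both strands, and matches may overlap. The motif was present in 11 of the 32 members (34.4%), in 3.99% of all 27025 genes with such a window, in 4.20% of the 7852 that were tested and in 9.46% of the 1332 called higher. Members with the motif had log2 changes of 1.36 to 4.32 with a median of 3.1 (n = 11), and members without it 1.16 to 3.42 with a median of 2.0 (n = 21). The difference between the medians was not tested. Ifit3 and Ifit3b, which share sequence, were counted separately. Ifi27l2a and Rtp4, the members with the largest changes, are in neither group. These are descriptions of letters in a short window, and no binding was measured. The members were chosen as interferon effector genes, so a higher share than over all genes can follow from that choice alone. The genes called higher include members. The 250 bases before the start are shown for the IFIT genes with a match, since they are the family with the largest median change, in the direction of the gene, with the matched letters in capitals. On the plus strand of chromosome 19 they cover chr19:34640639-34640888 for Ifit1, chr19:34583279-34583528 for Ifit3 and chr19:34607707-34607956 for Ifit3b, and the motif reads on the opposite strand in each.
Ifit1: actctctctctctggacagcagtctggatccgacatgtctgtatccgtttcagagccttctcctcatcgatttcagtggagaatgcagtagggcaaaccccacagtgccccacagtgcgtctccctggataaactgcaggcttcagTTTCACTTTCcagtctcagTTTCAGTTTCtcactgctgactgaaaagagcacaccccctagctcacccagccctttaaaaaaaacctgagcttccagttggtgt
Ifit3: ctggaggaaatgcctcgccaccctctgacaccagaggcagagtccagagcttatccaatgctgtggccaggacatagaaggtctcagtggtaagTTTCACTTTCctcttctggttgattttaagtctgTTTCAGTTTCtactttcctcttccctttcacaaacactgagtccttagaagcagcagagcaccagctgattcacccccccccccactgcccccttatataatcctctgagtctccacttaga
Ifit3b: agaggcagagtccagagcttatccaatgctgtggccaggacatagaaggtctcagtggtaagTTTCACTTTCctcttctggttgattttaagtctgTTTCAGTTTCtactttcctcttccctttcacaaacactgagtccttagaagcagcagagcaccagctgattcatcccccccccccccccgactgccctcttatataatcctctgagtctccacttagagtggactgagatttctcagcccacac
Each of the 3 holds 2 matches, GAAAGTGAAA and GAAACTGAAA when read on the motif's strand. They lie 95 to 104 and 76 to 85 bases before the start in Ifit1, 147 to 156 and 113 to 122 in Ifit3, and 179 to 188 and 145 to 154 in Ifit3b. The Ifit3 and Ifit3b windows of 300 bases align over 260 bases with 258 identical (99.2%), so the aligned parts are near copies of a shared sequence. The alignment also holds 80 gap positions, which this share leaves out. Ifit2 holds no match in its window.

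ISG15 is a ubiquitin-like protein that is joined to other proteins by a dedicated chain of enzymes, and all 6 genes of this system rose, with a median log2 change of 2.09. Isg15 itself (chr4:156199424-156200818) was at 13.8, 48.4, 14 and 8.72 FPKM in KO1 to KO4, against 0.473, 1.61, 7.97 and 3.8 FPKM in WT1 to WT4 (log2 change 2.33, SE 0.63, adjusted p = 0.0242). The groups did not overlap, but WT3 at 7.97 FPKM came close to KO4 at 8.72 FPKM. Its call was lost without KO2 (adjusted p = 0.0546), without WT1 (0.0573) and without WT2 (0.0618). Its promoter is shown because it carries the most matches of the motif among the 32 members searched, 3 that overlap each other between 57 and 78 bases before the start, on the sense strand (chr4:156200819-156201068, minus strand).
Isg15: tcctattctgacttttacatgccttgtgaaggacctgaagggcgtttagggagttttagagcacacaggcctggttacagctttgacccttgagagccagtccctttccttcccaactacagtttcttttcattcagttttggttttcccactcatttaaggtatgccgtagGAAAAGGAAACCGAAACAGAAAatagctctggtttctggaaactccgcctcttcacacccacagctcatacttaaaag

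Ube2l6 (chr2:84798828-84810335), the conjugating enzyme for ISG15, was at 25.2, 81.6, 47.4 and 25.4 FPKM in KO1 to KO4, against 0.717, 1.81, 5.23 and 10.1 FPKM in WT1 to WT4 (log2 change 3.25, SE 0.60, adjusted p = 0.0056). Uba7 (chr9:107975505-107984060), the activating enzyme, was at 35.5, 65.2, 29.6 and 34 FPKM in KO1 to KO4, against 9.3, 10.1, 5.63 and 19.9 FPKM in WT1 to WT4 (log2 change 1.84, SE 0.37, adjusted p = 0.00752). The conjugating enzyme was low in WT, while the activating enzyme was already at 5.63 FPKM or more in every WT library, and neither gene's groups overlapped. Herc6 (chr6:57581000-57664632), the main ISG15 ligase in mice, stood at 2.57, 11.4, 8.04 and 4.25 FPKM in KO1 to KO4, against 0.418, 0.919, 1.92 and 1.67 FPKM in WT1 to WT4 (log2 change 1.66, SE 0.40, adjusted p = 0.0162). Of its 50-base words 23.8% are shared with the gene model Gm45193, which overlaps it on the same strand, so its level is uncertain. Trim25 (chr11:88999376-89020293), a ligase for the RNA sensor RIG-I and for ISG15, showed 7.87, 15.9, 7.93 and 8.61 FPKM in KO1 to KO4, against 3.51, 4.35, 2.73 and 4.75 FPKM in WT1 to WT4 (log2 change 1.16, SE 0.25, adjusted p = 0.00973). It had the smallest change of the 38 members called higher, and KO2 stood apart from the other 3 Nynrin-KO libraries, which lay between 7.87 and 8.61 FPKM. Usp18 (chr6:121245906-121270917), which removes ISG15 and also dampens signalling at IFNAR2, had the largest change of the system, at 33.2, 166, 63 and 34.3 FPKM in KO1 to KO4, against 0.666, 2.31, 5.18 and 15.2 FPKM in WT1 to WT4 (log2 change 3.63, SE 0.73, adjusted p = 0.00785). WT libraries spanned 0.666 to 15.2 FPKM for this gene, and the lowest Nynrin-KO library was at 33.2 FPKM.

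Of the 4 membrane restriction factors 3 rose and Bst2 was not called. The IFITM proteins block the fusion of enveloped viruses with the cell. Ifitm3 (chr7:141009586-141010770) had the highest level of the set, with 1211, 4386, 2658 and 1343 FPKM in KO1 to KO4, against 88.8, 131, 329 and 884 FPKM in WT1 to WT4 (log2 change 3.1, SE 0.72, adjusted p = 0.0133). All of its WT libraries were below the lowest Nynrin-KO library, and WT4 at 884 FPKM lay nearest. Ifitm2 (chr7:140954837-140955987) was at 119, 315, 168 and 172 FPKM in KO1 to KO4, against 52.5, 78.7, 65.3 and 89.8 FPKM in WT1 to WT4 (log2 change 1.36, SE 0.31, adjusted p = 0.0126), and 48.5% of its words are shared with other genes, Gm45717 above all. Ifitm1 (chr7:140967221-140969825) stood at 18.8, 19.2, 5.59 and 9.6 FPKM in KO1 to KO4, against 0.754, 1.28, 0.578 and 0.987 FPKM in WT1 to WT4 (log2 change 2.78, SE 0.35, adjusted p = 0.00179). Unlike most members, Ifitm1 was not raised in WT4, and KO1 and KO2 were nearly equal. Its WT3 level rests on 1 read and its KO3 level on 9. The 3 genes follow each other on chromosome 7 in the order Ifitm2, Ifitm1 and Ifitm3. Bst2 (chr8:71534255-71537456), or tetherin, which holds budding virions at the cell surface, was at 43.3, 218, 57.4 and 48.9 FPKM in KO1 to KO4, against 31.1, 17.7, 14.8 and 60.2 FPKM in WT1 to WT4 (log2 change 1.4, SE 0.58, adjusted p = 0.105). KO2 was 4.38 times the mean of the other 3 Nynrin-KO libraries, all of which lay below WT4. Without KO2 its log2 change was 0.87, and under quantile normalization it was called (log2 change 1.67, adjusted p = 0.0423).

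The 4 nucleotide and RNA enzymes all rose, with a median log2 change of 2.48. Rsad2 (chr12:26442746-26456452), or viperin, which makes a chain-ending nucleotide that stops viral polymerases, was at 22.5, 75.6, 36.2 and 20.7 FPKM in KO1 to KO4, against 0.281, 1.45, 3.65 and 9.14 FPKM in WT1 to WT4 (log2 change 3.32, SE 0.63, adjusted p = 0.00645). Cmpk2 (chr12:26469204-26479837), a mitochondrial nucleotide kinase, lies 12.75 kb from Rsad2 on the opposite strand and changed by 2.07 on the log2 scale (adjusted p = 0.00865). Both neighbours were higher in every Nynrin-KO library than in any WT library. Samhd1 (chr2:157097533-157135265), which degrades deoxynucleotides, was at 67.3, 231, 119 and 123 FPKM in KO1 to KO4, against 15.8, 17.9, 27.5 and 48.5 FPKM in WT1 to WT4 (log2 change 2.26, SE 0.43, adjusted p = 0.00645). Isg20 (chr7:78913424-78920396), an RNA exonuclease, was at 14.3, 41.7, 21.7 and 14.2 FPKM in KO1 to KO4, against 0.834, 1.69, 2.81 and 5.66 FPKM in WT1 to WT4 (log2 change 2.7, SE 0.45, adjusted p = 0.00389). Samhd1 was well expressed in WT too, whereas Isg20 was at most 5.66 FPKM in WT. The Rsad2 promoter is shown as the case of a gene away from the IFIT cluster with a strong rise, and has 1 match on the antisense strand, 111 to 120 bases before the start (chr12:26456453-26456702, minus strand).
Rsad2: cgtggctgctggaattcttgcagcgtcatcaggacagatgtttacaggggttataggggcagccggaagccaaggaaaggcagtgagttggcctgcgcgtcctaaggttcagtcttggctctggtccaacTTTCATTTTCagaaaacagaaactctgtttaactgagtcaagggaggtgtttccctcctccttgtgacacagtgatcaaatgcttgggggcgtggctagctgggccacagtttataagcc

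**Figure D3:**
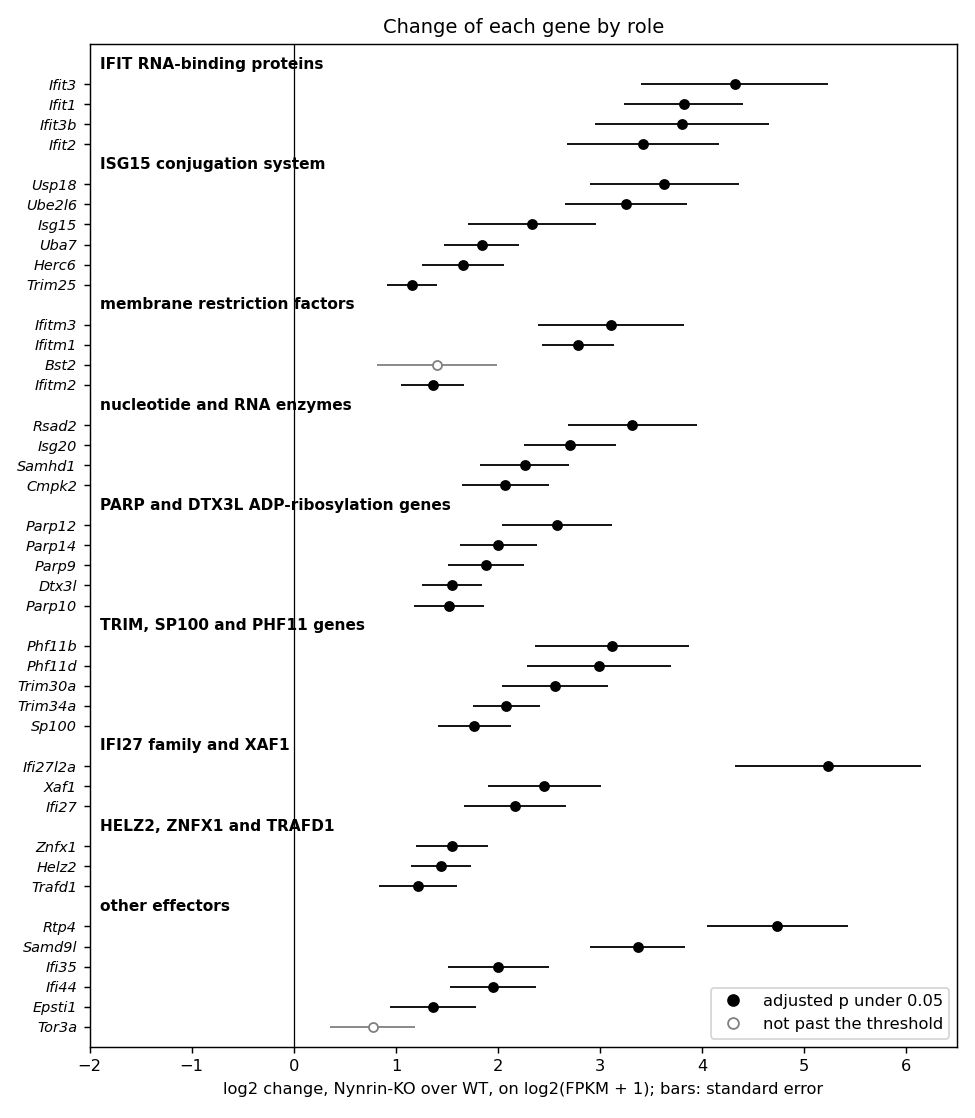
Log2 change of each gene (Nynrin-KO over WT, on log2(FPKM + 1), bars are standard errors), grouped by role; filled points passed an adjusted p of 0.05 and open points did not. The open points are Bst2 at 1.40 and Tor3a at 0.77, and the largest change is Ifi27l2a at 5.24.

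All 5 ADP-ribosylation genes rose, with a median log2 change of 1.88. Parp14 (chr16:35832874-35871544), which adds single ADP-ribose units to proteins, was at 4.52, 14.6, 6.57 and 5.56 FPKM in KO1 to KO4, against 0.554, 0.724, 0.687 and 2.67 FPKM in WT1 to WT4 (log2 change 2.0, SE 0.38, adjusted p = 0.00613). WT4 stood far above WT1 to WT3 for this gene, and all Nynrin-KO libraries stood above WT4. Dtx3l (chr16:35926511-35939151), a ubiquitin ligase that works in a complex with PARP9, was at 10.5, 24.5, 15.9 and 10.3 FPKM in KO1 to KO4, against 3.38, 3.59, 3.94 and 6.68 FPKM in WT1 to WT4 (log2 change 1.55, SE 0.30, adjusted p = 0.00639). Parp9 changed by 1.88 (adjusted p = 0.00736). Dtx3l and Parp9 share 458 exonic bases on opposite strands, and whether counting used strand is not stated, so reads there cannot be assigned to either. Parp12 and Parp10, which also add single ADP-ribose units, changed by 2.58 (adjusted p = 0.00906) and 1.52 (adjusted p = 0.0119). No Nynrin-KO library of these 5 genes lay within the WT range.

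The 5 TRIM, SP100 and PHF11 genes rose as well, with a median log2 change of 2.56. Trim34a (chr7:104244457-104262234), a TRIM family gene, was at 6.8, 16.3, 11.6 and 7.45 FPKM in KO1 to KO4, against 0.957, 1.09, 1.57 and 3.25 FPKM in WT1 to WT4 (log2 change 2.08, SE 0.32, adjusted p = 0.0030). It shares 41.3% of its words with Trim34b, and 23.5% of its exonic bases overlap Gm47248 on the opposite strand, so its level is uncertain. Sp100 (chr1:85649988-85709998), a structural protein of nuclear bodies that repress viral genomes, was at 91.1, 175, 111 and 92.5 FPKM in KO1 to KO4, against 20.2, 29, 29.7 and 63.6 FPKM in WT1 to WT4 (log2 change 1.77, SE 0.36, adjusted p = 0.00785). It was expressed at 20.2 FPKM or more in all libraries, and the groups did not overlap. Trim30a, which dampens Toll-like receptor signalling in mice, changed by 2.56 (adjusted p = 0.00823). The PHD finger genes Phf11b and Phf11d, which lie 6.055 kb apart on chromosome 14, changed by 3.12 (adjusted p = 0.0165) and 2.99 (adjusted p = 0.0148). Phf11b shares 47.0% of its words with other genes, Phf11a above all, and missed the threshold in voom. In WT4 it reached 43.5 FPKM, just under the lowest Nynrin-KO library at 44.3 FPKM.

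Ifi27l2a, Ifi27 and Xaf1, interferon-induced genes linked to mitochondria and cell death, rose by a median of 2.45. Ifi27l2a (chr12:103442167-103443680) had the largest change of all members, at 478, 2434, 1032 and 492 FPKM in KO1 to KO4, against 6.66, 16.2, 13.2 and 157 FPKM in WT1 to WT4 (log2 change 5.24, SE 0.91, adjusted p = 0.00459). WT4 held 13.04 times the mean level of WT1 to WT3 and still lay below KO1, the lowest Nynrin-KO library. Its neighbour Ifi27 (chr12:103434211-103440239), 1.927 kb away on the opposite strand, was at 125, 54.9, 59.9 and 57 FPKM in KO1 to KO4, against 9.09, 19.7, 6.78 and 36.8 FPKM in WT1 to WT4 (log2 change 2.17, SE 0.50, adjusted p = 0.0133). It was the member whose highest library was KO1, while KO2 to KO4 lay between 54.9 and 59.9 FPKM. Xaf1 (chr11:72301629-72313733), an antagonist of the apoptosis inhibitor XIAP, was at 31.7, 66, 41.3 and 16.8 FPKM in KO1 to KO4, against 2.92, 3.92, 3.92 and 18.2 FPKM in WT1 to WT4 (log2 change 2.45, SE 0.55, adjusted p = 0.0124). WT4 lay just above KO4, which is the sole overlap between the groups for this gene.

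Helz2, Znfx1 and Trafd1 had the lowest median change of the role groups, 1.45, and all were called higher. Helz2 (chr2:181227615-181242027), a helicase and nuclear receptor coactivator, was at 3.93, 7.55, 3.36 and 2.99 FPKM in KO1 to KO4, against 0.302, 1.06, 1.01 and 1.47 FPKM in WT1 to WT4 (log2 change 1.45, SE 0.29, adjusted p = 0.00804). Znfx1 (chr2:167035793-167063015), a helicase-type protein that binds viral RNA at mitochondria, was at 5.11, 17.3, 5.76 and 6.35 FPKM in KO1 to KO4, against 1.23, 1.59, 2.47 and 2.76 FPKM in WT1 to WT4 (log2 change 1.55, SE 0.35, adjusted p = 0.0125). In Znfx1 the Nynrin-KO libraries other than KO2 lay between 5.11 and 6.35 FPKM, above the highest WT library at 2.76 FPKM. Trafd1, a feedback inhibitor of innate signalling, changed by 1.21 (adjusted p = 0.043), with 29.3 to 87.6 FPKM in Nynrin-KO and 12.9 to 28.8 FPKM in WT. Its call was lost without KO1, KO2, KO4, WT1, WT2 or WT3, at adjusted p = 0.0507, 0.0725, 0.0791, 0.0884, 0.0969 and 0.0890.

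Of the remaining 6 effectors 5 rose. Rtp4 (chr16:23520291-23614222), a receptor chaperone that also restrains interferon signalling in mice, was at 72.8, 193, 80.1 and 32.9 FPKM in KO1 to KO4, against 0.228, 1.9, 1.1 and 9.42 FPKM in WT1 to WT4 (log2 change 4.74, SE 0.69, adjusted p = 0.00255). Its mean ratio of 29.9 was the highest of the set, and KO4, the lowest Nynrin-KO library, was above WT4. Samd9l (chr6:3372257-3399572), a brake on translation and cell growth whose human gene is mutated in inherited marrow failure, was at 36.2, 55, 35.3 and 36.3 FPKM in KO1 to KO4, against 0.55, 3.76, 2.68 and 8.15 FPKM in WT1 to WT4 (log2 change 3.37, SE 0.47, adjusted p = 0.00219). KO1, KO3 and KO4 lay close together, KO2 was higher, and the highest WT library was at 8.15 FPKM. Ifi44 (chr3:151730922-151749960) was low, at 2.23, 9.77, 5.25 and 1.73 FPKM in KO1 to KO4, against 0.0595, 0.139, 0.501 and 0.471 FPKM in WT1 to WT4 (log2 change 1.95, adjusted p = 0.00975). Since it passed the filter through Nynrin-KO alone, it had to differ. Ifi35, which pairs with the interferon-induced protein NMI, changed by 2.0 (adjusted p = 0.0174), and missed the threshold without KO2 (adjusted p = 0.0501).

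Epsti1 and Tor3a were the weakest of these effectors. Epsti1, a gene named for epithelial and stromal interaction, changed by 1.36 (adjusted p = 0.0409), with KO1 at 14.7 FPKM just under WT4 at 14.9 FPKM. Its call was lost without KO4, WT1, WT2 or WT3, at adjusted p = 0.0708, 0.0969, 0.0899 and 0.0717. Tor3a (chr1:156653617-156674356), a torsin ATPase of the endoplasmic reticulum, was at 8.27, 40.6, 15.4 and 16 FPKM in KO1 to KO4, against 10.6, 8.29, 7.04 and 13.6 FPKM in WT1 to WT4 and was not called (log2 change 0.77, SE 0.42, adjusted p = 0.198). KO1 lay below WT1, WT2 and WT4, KO3 and KO4 slightly above WT4, and without KO2 the log2 change was 0.37.

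The 40 genes were spread over 15 chromosomes, and 16 of them lay within 100 kb of another member. The neighbouring groups were the IFIT genes, the IFITM genes, Rsad2 with Cmpk2, Ifi27 with Ifi27l2a, Phf11b with Phf11d, and Parp14, Dtx3l and Parp9. Some neighbours differed in the size of their log2 change, a difference that was not tested: Ifi27l2a changed by 5.24 beside 2.17 for Ifi27, and Ifitm3 by 3.1 beside 1.36 for Ifitm2. Reads of further members are uncertain in part. Ifi35, Trafd1, Usp18 and Znfx1 overlap gene models on the opposite strand, with 16.8% of exonic bases for Ifi35 and 1.0% to 6.17% per gene model for the other 3. Rtp4 overlaps Gm45338 on the same strand over 13.9% of its exonic bases, and Phf11d and Ifitm3 share 12.2% and 10% of their words with other genes.

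The other genes of the pathway, listed by role, moved in part. Of 54 genes listed outside the effector set, 53 were in the table and 30 passed the filter. Of these 30, limma called 12 higher and 0 lower, where 14.0% and 13.8% of all genes tested were. At an unadjusted p under 0.05 the counts were 15 and 0 (20.4% and 20.1% of all genes tested). By voom they were 13 and 0, where 18.8% of the genes it tested were called higher. The median log2 change of the 30 genes was 0.50, below the 2.21 of the effector genes. None of the 20 ligand genes found, which encode the interferons themselves, passed the filter. The reads of all ligand genes together were 13, 54, 17 and 35 in KO1 to KO4, and 5, 15, 8 and 48 in WT1 to WT4. Only 3 ligand genes, Ifng, Ifnk and Ifne, had more than 10 reads in any library. The highest ligand level in Nynrin-KO was Ifna2 at 3.71 FPKM in KO3, from 7 reads, and in WT Ifna12 at 2.56 FPKM in WT3, from 4 reads. Ifng, the gene of interferon gamma, had 1.26 FPKM from 35 reads in KO2 and was listed at 0 in all 4 WT libraries. At this depth, ligand transcripts from the sorted cells were barely detectable in both groups. The 4 genes induced mainly by interferon gamma (Cxcl9, Ciita, Nos2 and Ido1) did not pass the filter either, and summed to 0.866 to 2.21 FPKM in Nynrin-KO and 0.415 to 1.31 FPKM in WT.

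**Figure D4:**
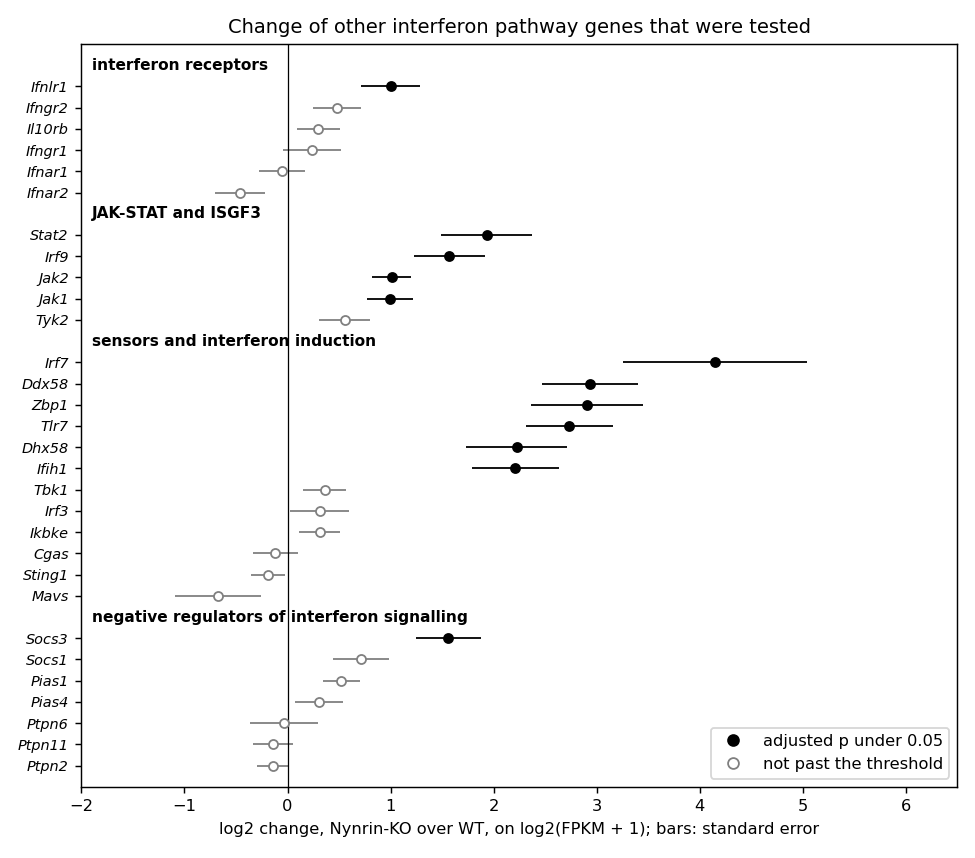
Log2 change (Nynrin-KO over WT, on log2(FPKM + 1), bars are standard errors) of the tested interferon pathway genes outside the effector set, grouped by role; filled points passed an adjusted p of 0.05. Filled points number 1 of 6 receptors, 4 of 5 JAK-STAT and ISGF3 genes, 6 of 12 sensors and induction genes and 1 of 7 negative regulators, and none of them lies below 0. Of all genes tested 14.0% were called higher.

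Of 6 receptor genes 1 was called higher, which is near the 14.0% of all genes tested that were. It was Ifnlr1 of the interferon lambda receptor, at 2.65, 1.35, 1.7 and 1.86 FPKM in KO1 to KO4, against 0.0361, 0.473, 0.244 and 1.17 FPKM in WT1 to WT4 (log2 change 1.0, SE 0.29, adjusted p = 0.0299). Ifnar2, a chain of the type I receptor, was not called, with 17.6, 31.5, 18.9 and 29.3 FPKM in KO1 to KO4, against 40.2, 33.4, 25.8 and 33.2 FPKM in WT1 to WT4 (log2 change -0.46, adjusted p = 0.187), and neither were Ifngr2 (0.48, adjusted p = 0.161) and Il10rb (0.30, adjusted p = 0.31). Of the 5 JAK-STAT and ISGF3 genes 4 rose. Irf9, the DNA-binding subunit of ISGF3, was at 34.2, 51.1, 30.1 and 29.8 FPKM in KO1 to KO4, against 7.37, 11.4, 8.03 and 23.2 FPKM in WT1 to WT4 (log2 change 1.57, SE 0.35, adjusted p = 0.0109). Irf9 was higher in every Nynrin-KO library than in any WT library. Stat2, whose protein joins IRF9 in ISGF3, changed by 1.93 (adjusted p = 0.0129). The kinase genes Jak2 and Jak1 changed by 1.01 (adjusted p = 0.00559) and 1.0 (adjusted p = 0.0122). Tyk2, named after its values were seen as the exception, was not called (log2 change 0.55, adjusted p = 0.121).

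Of 12 tested sensor and induction genes 6 were called higher, where 14.0% of all genes tested were. The RNA sensor genes Tlr7, Ddx58 (RIG-I) and Ifih1 (MDA5) changed by 2.73, 2.93 and 2.21 (adjusted p = 0.00303, 0.00334 and 0.00645), and Zbp1, a sensor of left-handed nucleic acids, by 2.91 (adjusted p = 0.00606). Ddx58 was at 15.3, 36.2, 23.5 and 14.8 FPKM in KO1 to KO4, against 0.211, 2.63, 1.71 and 4.76 FPKM in WT1 to WT4. Of 7 tested negative regulators 1 was called higher, which is near that share. It was Socs3, which inhibits JAK kinases, at 2.07, 4.08, 1.29 and 4.12 FPKM in KO1 to KO4, against 0.379, 0.166, 0 and 0.50 FPKM in WT1 to WT4 (log2 change 1.56, SE 0.31, adjusted p = 0.0078). Socs3 passed the filter through Nynrin-KO alone. Socs1, a related inhibitor, was not called (log2 change 0.71, adjusted p = 0.0785), nor were Pias1 (0.52, adjusted p = 0.0607) and Pias4 (0.31, adjusted p = 0.357).

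The number of calls depended on which libraries and covariates entered the fit. In the 5 libraries high in Gm10800 (KO1, KO3, WT2, WT3 and WT4), 36 members were tested and 6 were called higher, namely Isg20, Rsad2, Rtp4, Samd9l, Trim34a and Ube2l6, where 1.90% of the genes tested there were called higher. The median log2 change of the members in those libraries was 1.83. Among the 3 libraries low in Gm10800 WT1 is the sole WT library, and no test was made there. In a fit over all 8 libraries with Gm10800 as a covariate, 36 members were called higher (15.9% of the genes tested). With the mean log2 level of the 15 neutrophil genes as covariate, limma called 0 of the 40 members higher (0.0319% of the genes tested), and 8 genes in all, with 28 members higher at an unadjusted p under 0.05 (8.43% of the genes tested). All 40 changes stayed positive in that fit, from 0.99 to 3.72. The summed neutrophil level was higher in every Nynrin-KO library than in any WT library. That fit therefore cannot tell genotype and neutrophil level apart, and no conclusion on either is drawn from it.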

How the data were processed

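RNA was measured in 4 Nynrin-KO and 4 WT libraries, grouped by the genotype label. The authors deposited 1 table of 48500 genes with a value per library and no unit in its header. The unit was taken as FPKM, deposited after normalization by the authors for depth and gene length, because multiplying each by the kilobases of the longest GENCODE M21 transcript gives near-equal column totals. After division by the value of 1 read, 99.41% to 99.48% of entries were whole numbers within 0.1. Build mm10 and the tools Bowtie 0.12.9, Cufflinks 2.1.1 and HTSeq are listed, per the submitters' processing notes, without their roles. The counting rule and any use of strand are not stated. Floors of 3 reads cover counting error only.

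The 12524 genes that reached 1 FPKM in 4 or more of the 8 libraries entered limma 3.58.1 under R 4.3.3, as log2(FPKM + 1), with trend and robust estimation, two-sided, with Benjamini-Hochberg adjustment over all genes tested and a call at 0.05. Every adjusted p is from this fit unless another is named. Log2 changes on this scale understate the change of low genes. A gene can pass the filter through the libraries of 1 group alone. The script was tested on simulated data. Gene coordinates are those of GENCODE M21 (the assembly also called GRCm38), promoters those of RefSeq for GRCm38.p6, and sequence sharing was counted as 50-base words of a gene's longest transcript that also occur in transcripts of other genes.

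The members, the lists and the tests were chosen with earlier results of these data known. Values in every library are given for the 10 largest changes, the ISG15 system, the Ifitm genes, the 2 members with the smallest p of each other role group, and the members not called; in each pathway list up to 4 genes with the smallest p are named. A gene of the pathway is not reported here. The alternatives are the pseudocount, the filter, the scaling, limma's options, array weights, the replicate number as a block, libraries left out, covariates, voom on the recovered reads, and the threshold. Tables and plots used Python 3.11.15, numpy 2.4.6, pandas 2.3.3 and matplotlib 3.10.9.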

Additional observations from a re-analysis of the deposited data

Results flagged for a closer look

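For each member, each group of 4 libraries was examined for a library apart from the other 3 on the log2(FPKM + 1) scale, by the gap to its nearest neighbour as a share of the group's range. Of 80 such groups 6 had a ratio above Dixon's 95% critical value for 4 samples, where chance gives about 1 in 20.

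In Nynrin-KO, KO2 stood above the other libraries for Samd9l (ratio 0.938, 55.0 FPKM), Trim25 (0.876, 15.9 FPKM) and Znfx1 (0.832, 17.3 FPKM), and KO1 for Ifi27 (0.894, 125 FPKM). In WT, WT4 stood above the other libraries for Parp14 (0.879, 2.67 FPKM) and Xaf1 (0.857, 18.2 FPKM).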

How the results depend on the processing

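Of the 40 members, 38 were called higher in the fit as reported. The number was 23 at an adjusted p under 0.01, 20 with at least 1 FPKM required in all 8 libraries (22 members tested), 6 in the 5 libraries high in Gm10800 and 0 with the neutrophil level as covariate. It ranged from 34 to 38 with each library left out in turn, and under the other alternatives run from 30 (WT1 and KO1 left out) to 39 (quantile normalization). The count of members called lower was 0 under every alternative, with each library left out too (0 to 0). The median log2 change of the members was 1.96 to 2.52 with each library left out.

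Of the other pathway genes 12 were called higher as reported, 6 at an adjusted p under 0.01, 2 in the 5 libraries and 0 with the neutrophil level as covariate, and 10 to 13 with each library left out. The count called lower was 0 as reported and with each library left out (0 to 0), 1 in the 5 libraries and 2 with the Gm10800 level as covariate. The cause of these differences was not tested. The filter and the left-out libraries also change how many genes and libraries enter the fit.

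The deviations of same-numbered libraries from their group means had correlations of mixed sign (-0.213, -0.389, 0.329 and 0.008 for the numbers 1 to 4). These values cannot exclude that the numbers mark a pairing, which the labels do not state. With the replicate number as a block, 36 members were called higher. The DESeq2 size factors planned for a deposited count table were not run, since the table used holds FPKM and not counts. A median-of-ratios scaling of the FPKM gave 38 members called higher, where 2123 of the 12524 genes tested were.

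Depth limits the low end. In KO3 and WT3, 3 reads from a 1 kb transcript give 1.64 and 1.53 FPKM, so low values there, such as those of Ifitm1 and the ligand genes, rest on few reads.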
